A study of Mus musculus with 2 samples.

Results

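The genes followed here encode 10 enzymes and receptors of eicosanoid synthesis and sensing in the mouse colon: Ptgs1, Ptgs2, Ptges, Hpgds, Alox5, Alox5ap, Ltc4s, Alox15, Ptger2 and Ptger4. They were picked by gene symbol as members of 1 pathway, with earlier results of these data known, and all 10 were found among the 31053 features of the deposited tables. Single-cell libraries had been made from colon lamina propria cells labelled cd11b+, 1 from wild-type animals (WT) and 1 from knockout animals (KO), which lack a non-coding transcript named LncRNA17Rik in the labels and lncLy6c in the study. The labels give no treatment for either genotype, and the study states that the mice were 8 weeks old and that 6 were pooled. With 1 pooled library per genotype there is no replicate and no test between genotypes, so every interval below covers counting error only. No feature carried either name of the deleted RNA, and 1700016P04Rik, the transcript matched by the study's primers, had 0 UMIs in both libraries, so the genotype labels were not checked.

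Eicosanoids are short-lived lipid mediators made from arachidonic acid. The cyclooxygenases encoded by Ptgs1 and Ptgs2 make prostaglandin H2, which terminal synthases turn into single prostaglandins: the product of Ptges gives prostaglandin E2 and that of Hpgds prostaglandin D2. The lipoxygenase branch starts with Alox5 and its helper Alox5ap, and Ltc4s then joins glutathione to leukotriene A4 to give leukotriene C4, while Alox15 is best known from eosinophils and some macrophages. Prostaglandin E2 acts on cells through receptors that include those encoded by Ptger2 and Ptger4, and in the gut it is known for its part in mucosal repair and in restraint of inflammation.

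The WT library kept 2597 cells with 18994564 unique molecular identifiers (UMIs, 1 per captured RNA molecule) and a median of 5073 per cell. The KO library kept 2514 cells with 22331342 UMIs and a median of 6564.5. Cells were put into classes from fixed markers, without use of the 10 genes or of other eicosanoid genes, and levels are given as UMIs per 1000000 UMIs of the class (CPM). The main myeloid classes were resident macrophage-like (323 WT and 130 KO cells), inflammatory monocyte-like (461 and 368), a cluster called intermediate (18 and 152) and neutrophil-like (81 and 265). Further ones were conventional dendritic cells of type 1 (cDC1-like, 109 and 284) and type 2 (cDC2-like, 251 and 506), and a Ccr3-high class (194 and 408). The intermediate cluster was so called because 4 markers of the resident macrophage list and 4 of the inflammatory monocyte list were raised. Its leading genes were Retnla, Ccl24, Lpl and Fn1, and the name does not place it midway between these classes. In the Ccr3-high class Ccr3 and Siglecf were raised but the eosinophil granule genes Epx and Ear1 were at 0 in both libraries, so it was not given a cell type name, and its median depth was only 750 UMIs in WT and 970.5 in KO. B, T, NK and plasma cells, epithelial cells and fibroblasts together made up 34.8% of WT and 11.1% of KO cells despite the cd11b+ label. Itgam, which encodes CD11b, was found in 58.5% of WT and 56.9% of KO resident macrophage-like cells and in 14.1% and 7.27% of T cells.

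**Figure D1:**
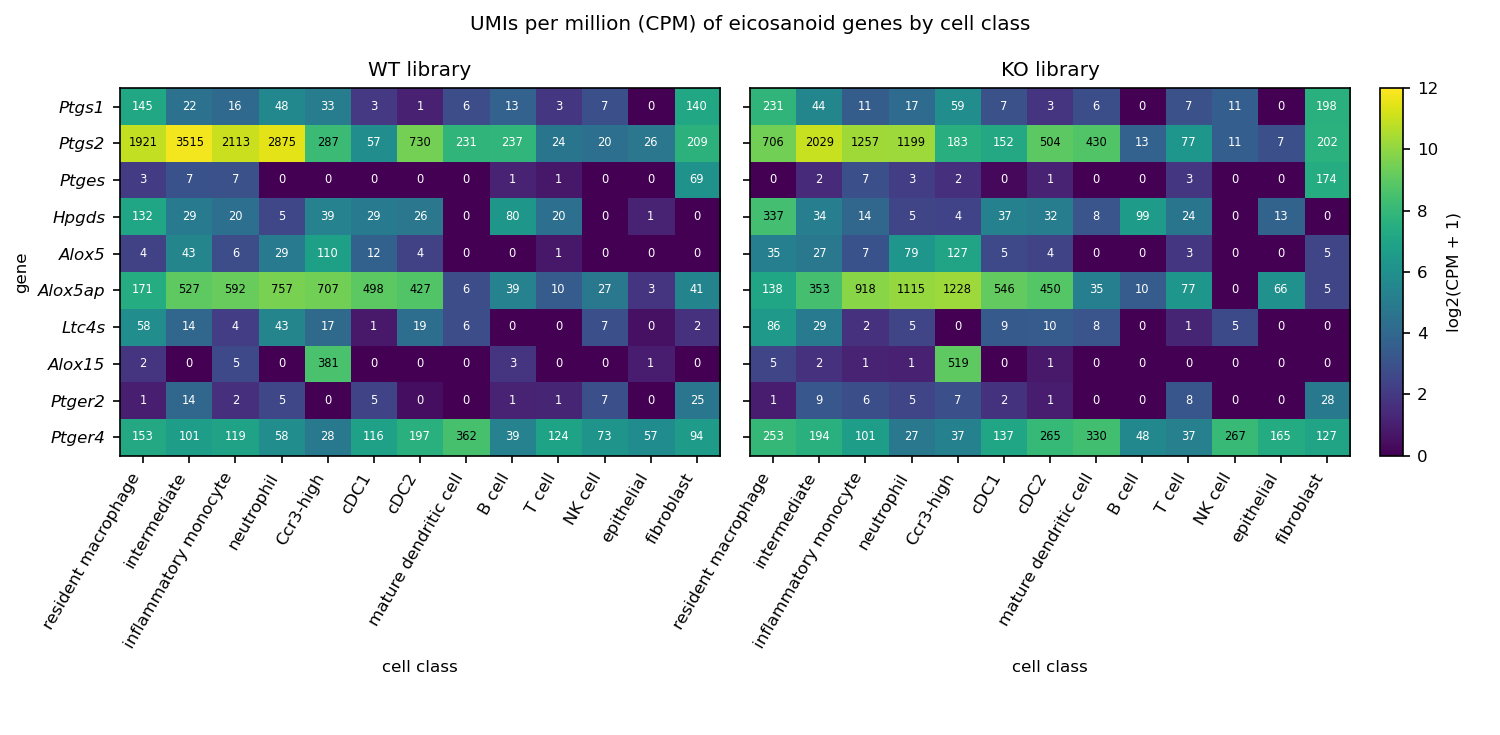
Level of each of the 10 genes in 13 cell classes of the WT (left) and KO (right) library. The colour is log2(CPM + 1) and the printed number is the CPM. Ptgs2 is bright in macrophages, monocytes and neutrophils, Alox15 mainly in the Ccr3-high class, and Ptges in fibroblasts.

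Ptgs2, the inducible cyclooxygenase (ENSMUSG00000032487, plus strand of chromosome 1, chr1:150100031-150108227, GRCm38), was highest by class in macrophage-like, monocyte-like and neutrophil-like cells in both libraries. Its level was highest in the intermediate cluster, at 3515 CPM in WT and 2029 in KO, where the WT value rests on 18 cells. Neutrophil-like cells followed at 2875 CPM in WT and 1199 in KO, inflammatory monocyte-like cells at 2113 and 1257, and resident macrophage-like cells at 1921 and 706. In WT these 4 classes had intervals that did not overlap with their neighbours in the order, whereas in KO monocytes and neutrophils overlapped. As a class, cDC2-like cells stood lower, at 730 CPM in WT and 504 in KO, and cDC1-like cells at 57.5 and 152. The cDC2-like Plet1 cluster was at 1044 CPM in WT and 793 in KO, and the Cd209a cluster at 479 and 384. The gap between libraries was smaller in each of these clusters than in the class. In KO the interval of the Plet1 cluster (756 to 831) overlapped that of resident macrophage-like cells (656 to 759).

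Between the libraries, Ptgs2 was lower in KO in 5 of the 6 myeloid classes compared, and in 2 of them the ratio was past 2-fold. In resident macrophage-like cells the log2 ratio of KO to WT was -1.44 (95% interval -1.56 to -1.33), from 3903 WT and 741 KO UMIs. There, 46.1% of WT and 22.3% of KO cells held 5 or more Ptgs2 UMIs. Over all genes of that class with at least 50 UMIs, 7% were at least 2-fold lower in KO. In neutrophil-like cells the log2 ratio was -1.26 (-1.41 to -1.11), against a background of 7.12% of genes at least 2-fold lower. Markers of other cells differed beside both results. In resident macrophage-like cells the inflammatory monocyte list summed to 1319 CPM in WT and 404 in KO, with 10 of 10 genes seen in each, and the neutrophil list to 350 and 243 CPM (8 and 7 of 9 genes, Ly6g at 0 in both). In neutrophil-like cells the resident macrophage list summed to 594 CPM in WT and 132 in KO (7 and 8 of 10 genes, Folr2 and Mertk at 0 in both), and the neutrophil list itself to 43648 and 78297 CPM. The part of these cells in the results was not tested. The ratio was -0.75 in monocytes (-0.81 to -0.69), -0.53 in cDC2-like cells (-0.61 to -0.45) and -0.65 in the Ccr3-high class (-1.16 to -0.12), none of them past 2-fold. In the Ccr3-high class the ratio ranged from -2.67 to -0.38 over 13 other settings and was past 2-fold in 4 of them. In monocytes the sign was kept in 14 of 15 other settings, and with more variable genes in the clustering the KO level was higher, by 0.47 on the log2 scale.

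**Figure D2:**
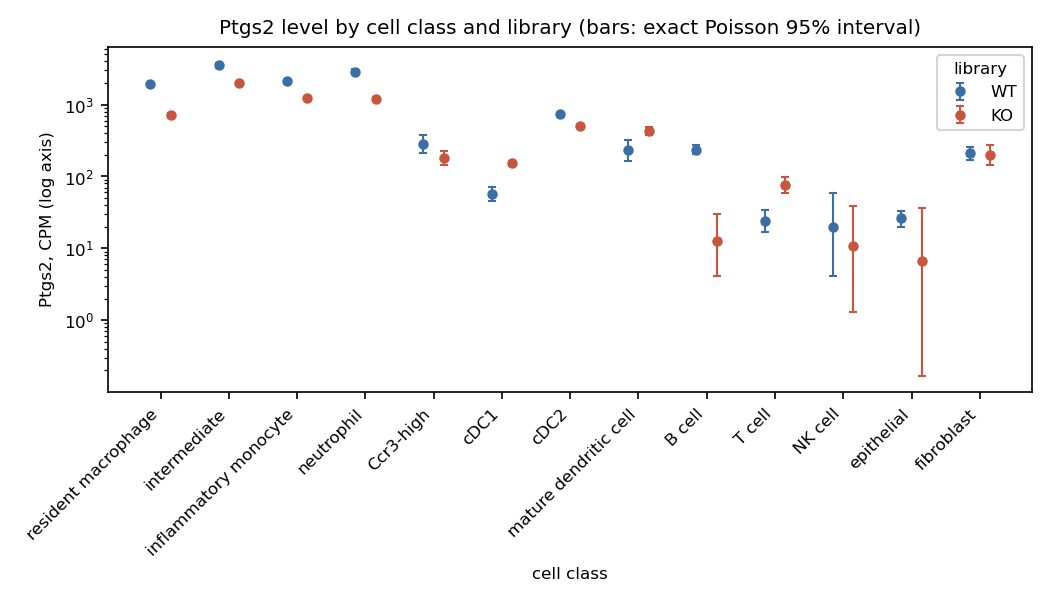
Ptgs2 level in CPM on a log axis, by cell class, in the WT (blue) and KO (red) library. Points are levels and bars exact Poisson 95% intervals. The KO point lies below the WT point in resident macrophages (706 against 1921 CPM), monocytes and neutrophils, and above it in cDC1 cells (152 against 57.5 CPM).

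The Ptgs2 difference in macrophages depended on where the border of the class was drawn. The monocyte-like class consisted of 3 clusters that the libraries filled unevenly, with 413 WT and 64 KO cells in the first, 32 and 267 in the second and 16 and 37 in the smallest. In the smallest of them, with Rsad2 and Ccl2 among its leading genes, Ptgs2 was higher in KO, at 1752 CPM in 16 WT cells and 2772 CPM in 37 KO cells. In the other clusters it was lower in KO, at 2174 against 879 CPM and at 1593 against 1175 CPM. When intermediate cells were counted as resident macrophages, a grouping added after the data had been seen, the log2 ratio there was -0.40, and over macrophages and monocytes pooled it was -0.58 (-0.62 to -0.54), from 2073 CPM in WT to 1386 in KO. With more variable genes the pooled ratio was 0.01. After thinning each cell to 500 UMIs, 44.0% of WT and 16.2% of KO resident macrophage-like cells held a Ptgs2 UMI, beside 1.24% and 2.73% of T cells at median depths of 4962 and 5873.5 UMIs.

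cDC1-like cells went the other way. The class held 76 Ptgs2 UMIs in 109 WT cells and 753 in 284 KO cells, a log2 ratio of 1.41 (1.06 to 1.77), where 2.12% of all genes were at least 2-fold higher. In its cycling cluster, which held 25 WT and 102 KO cells, Ptgs2 stood at 73.9 CPM in WT and 240 in KO, against 47.9 and 57.8 CPM in the non-cycling cluster. The gene was unevenly spread, since the 5 highest cells held 52.6% of the WT and 40.5% of the KO UMIs, and without these 5 cells in each library the level was 29.0 CPM in WT and 93.4 in KO. The neutrophil marker list summed to 20.4 CPM in WT and 183 in KO cDC1-like cells (6 and 8 of 9 genes with a UMI, Ly6g at 0 in both). It was at 98.3 CPM in the 5 KO cells with the most Ptgs2 and at 186 CPM in the other KO cells. The inflammatory monocyte list was at 1370 CPM in those 5 cells and 786 in the other KO cells. The cDC2 list was at 1134 and 962 CPM, and the resident macrophage list at 91.8 and 202. The part of such cells in the result was not tested. When each cell was classed by its highest marker score, the ratio turned to -1.93, and with each cell weighted equally it was 0.76.

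In lymphocytes the higher Ptgs2 value of each comparison came largely from few cells. In B cells the level was 237 CPM in WT and 12.7 in KO (189 and 5 UMIs), a log2 ratio of -4.22 (-5.86 to -2.98), where 6.7% of genes were at least 2-fold lower. Without the 5 highest cells of each library, the level was 69.7 CPM in WT (51 UMIs) and 0 in KO, so the order of the libraries held. The 5 highest WT cells held 73.0% of the WT UMIs. In those 5 cells the neutrophil marker list summed to 4085 CPM, against 655 CPM in the other WT B cells and 20.3 CPM over all KO B cells. The resident macrophage list was at 1423 CPM in those 5 cells and 135 in the other WT B cells, and the inflammatory monocyte list at 2081 and 956. Over the whole class the neutrophil list had 8 of 9 genes with a UMI in WT and 4 of 9 in KO, with Ly6g at 0 in both. The part of such cells in the B cell result was not tested. When each cell was classed by its highest marker score, the ratio was -0.97 and no longer past 2-fold.

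In T cells Ptgs2 was at 24.3 CPM in WT and 77.2 in KO (35 and 57 UMIs), a log2 ratio of 1.67 (1.04 to 2.32), where 2.94% of genes were at least 2-fold higher. The share of T cells with a UMI was lower in KO, at 8.18% against 12.9% in WT. The 5 highest KO cells held 93.0% of the KO UMIs, and without the 5 highest cells of each library the level was 18.5 CPM in WT and 5.97 in KO (26 and 4 UMIs), so the order of the libraries turned. Those 5 KO cells held 1519 CPM of resident macrophage and 1212 CPM of cDC2 markers, against 403 and 194 CPM in the other KO T cells. The inflammatory monocyte list was at 876 CPM in those 5 cells and 298 in the other KO T cells. In the other WT T cells it was at 924 CPM. Over the class the resident macrophage list summed to 350 CPM in WT and 506 in KO, with 9 of 10 genes seen in each (Cd163 at 0 in WT and Folr2 in KO), and its part in the T cell result was not tested.

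**Figure D3:**
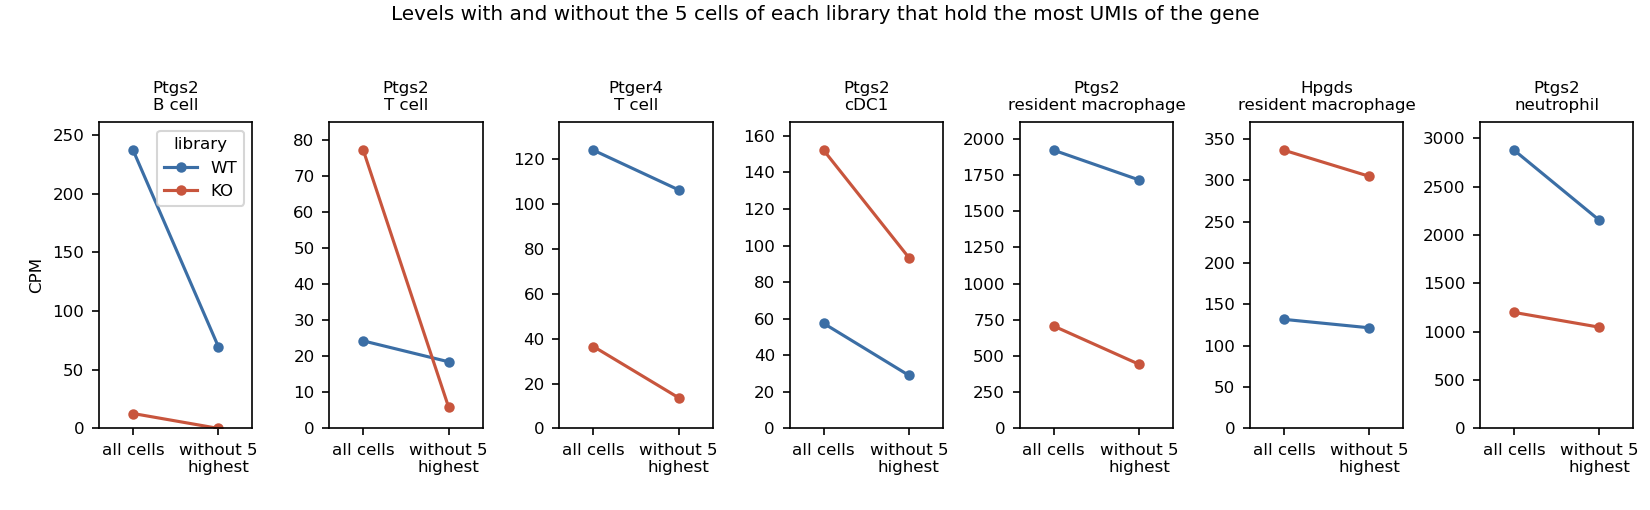
CPM of 7 gene and class pairs in the WT (blue) and KO (red) library, over all cells and without the 5 cells of each library that hold the most UMIs of that gene. Each panel has its own axis from 0. The lines cross only for Ptgs2 in T cells, where the KO level goes from 77.2 to 5.97 CPM and the WT level from 24.3 to 18.5.

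Ptgs1, the cyclooxygenase that is made constitutively in many tissues (ENSMUSG00000047250, plus strand, chr2:36230426-36252272), was highest in resident macrophage-like cells and fibroblasts. The level was 145 CPM in WT and 231 in KO resident macrophages, and 140 and 198 CPM in fibroblasts, and the intervals of these 2 classes overlapped in both libraries. Resident macrophage-like cells held 64.6% of all WT and 48.3% of all KO UMIs of the gene. The KO to WT ratio there was 0.67 on the log2 scale (0.42 to 0.92), opposite in sign to that of Ptgs2, and it kept that sign in 14 of 15 other settings of the processing. In monocyte-like cells it stood at 16.4 CPM in WT and 10.5 in KO, with an interval that included no difference (-1.33 to 0.03). In both larger monocyte clusters the KO value was the higher one, at 17.8 CPM in WT and 27.5 in KO and at 4.71 and 7.86, from few UMIs. Of the resident macrophage-like cells with a Ptgs1 UMI, 84 of 119 in WT and 39 of 74 in KO also held one of Ptgs2.

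Hpgds, the synthase of prostaglandin D2 (ENSMUSG00000029919, minus strand, chr6:65117293-65144908), was highest in resident macrophage-like cells, and the KO level was the higher one. It stood at 132 CPM in WT and 337 in KO, a log2 ratio of 1.35 (1.12 to 1.59), where 2.83% of all genes in the class were at least 2-fold higher. At full depth 42.4% of WT and 73.1% of KO cells held a UMI, and after thinning to 500 UMIs 7.74% and 18.5%. In neutrophil-like cells, taken as background, the thinned shares were 0% of 81 cells, which allows up to 3.70%, and 0.377%, at median depths of 2284 and 3014 UMIs against 5196 and 6716.5 in resident macrophages. The UMIs were spread over many cells, since the 5 highest held 10.8% in WT and 15.9% in KO, and the log2 ratio without them was 1.32. The inflammatory monocyte list in these cells, at 1319 CPM in WT and 404 in KO, was lower in KO, and its part in the Hpgds result was not tested.

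B cells had the next highest Hpgds level, 80.3 CPM in WT and 99.0 in KO, with overlapping intervals between libraries. The resident macrophage markers in those B cells summed to 241 CPM in WT and 58.4 in KO (8 and 5 of 10 genes with a UMI, Cd163 and Folr2 at 0 in both), and their part in the B cell level was not tested. cDC1-like cells stood at 29.5 and 37.2 CPM and cDC2-like cells at 26.3 and 31.9, and in both the Plet1 or cycling clusters held more of the gene than the larger clusters in WT. Within cDC2-like cells, the Plet1 cluster was at 40.3 CPM in WT and 62.4 in KO, and the Cd209a cluster at 15.1 and 19.2. Hpgds and Ptgs1 were found in the same cells more often than Ptgs1 was seen in the class as a whole: 69 of 137 WT and 62 of 95 KO resident macrophage-like cells with Hpgds also held Ptgs1, that is 50.4% and 65.3%, against 36.8% and 56.9% of all cells. Cells deeper in UMIs are more likely to hold both. As with Ptgs2, the Hpgds difference narrowed with the class border, and with intermediate cells counted as resident macrophages the log2 ratio was 0.24.

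Ptges, the inducible synthase of prostaglandin E2 (ENSMUSG00000050737, minus strand, chr2:30889471-30929863), was highest in fibroblasts and rare, with 62 UMIs in the WT and 78 in the KO library. Fibroblasts held 48.4% and 47.4% of them, at 68.9 CPM in WT and 174 in KO (80 and 21 cells), and macrophages and monocytes held 43.5% and 30.8%. The fibroblasts were too few in KO for a comparison of genotypes. Over macrophages and monocytes pooled, 27 WT and 24 KO UMIs gave a log2 ratio of -0.42 (-1.28 to 0.43), not past 2-fold. Monocyte-like cells were far under the fibroblast level, at 6.77 and 6.69 CPM, with overlapping intervals between libraries, and the intermediate cluster in WT was at 7.22 CPM from a single UMI. Of the monocyte UMIs, 18 of 19 in WT lay in the largest WT cluster, whereas in KO 9 of 21 lay in the smallest cluster and none in the largest WT cluster. All 14 WT and 12 of 13 KO monocyte-like cells with a Ptges UMI also held Ptgs2, and none of them held Ptgs1. Over all monocyte-like cells 79.8% in WT and 69.3% in KO held Ptgs2 and 7.81% and 5.71% Ptgs1. Among fibroblasts with Ptges, 3 of 20 in WT and 6 of 11 in KO held Ptgs2, and 10 of 20 and 7 of 11 held Ptgs1, beside 17.5% and 42.9% of all fibroblasts with Ptgs2 and 38.8% and 47.6% with Ptgs1.

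**Figure D4:**
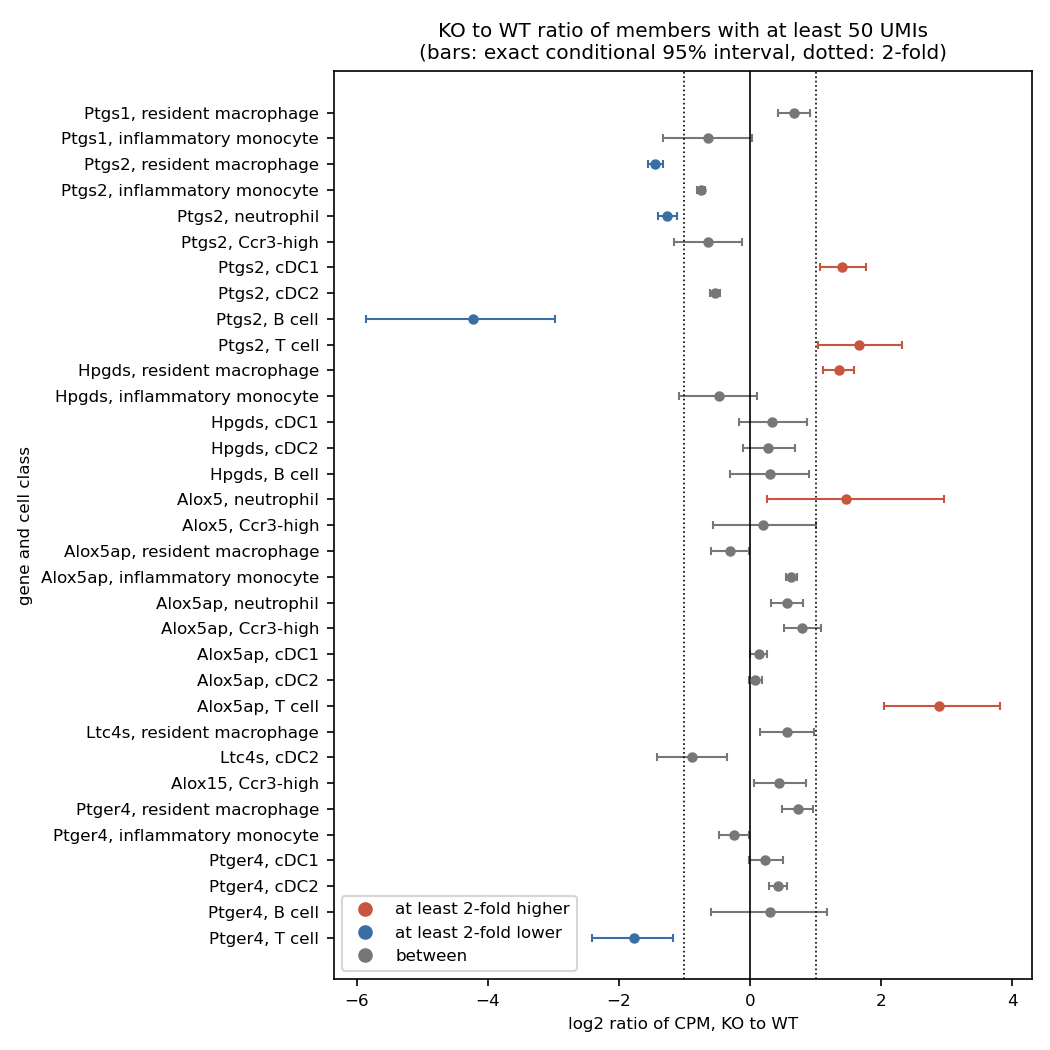
Log2 ratio of CPM in KO to WT for the 33 gene and class pairs with at least 50 UMIs over both libraries. Points are ratios, bars exact conditional 95% intervals, and dotted lines mark 2-fold. Of the pairs, 5 lie at least 2-fold higher (red), 4 at least 2-fold lower (blue) and 24 between (grey).

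Alox5ap, the membrane protein that hands arachidonic acid to 5-lipoxygenase (ENSMUSG00000060063, plus strand, chr5:149264767-149288153), was the member seen in most KO cells, 72.6% against 43.7% in WT. Among myeloid classes it was lowest in mature dendritic cell-like cells, at 6.25 CPM in WT and 35.3 in KO, and then in resident macrophages. Neutrophil-like cells stood at 757 CPM in WT and 1115 in KO, the Ccr3-high class at 707 and 1228, and monocyte-like cells at 592 and 918. cDC1-like cells were at 498 and 546 CPM and cDC2-like cells at 427 and 450, while resident macrophage-like cells were at 171 and 138. In the first 3 classes the level was higher in KO without reaching 2-fold, with log2 ratios of 0.56 (0.31 to 0.81), 0.80 (0.52 to 1.09) and 0.63 (0.54 to 0.72).

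Over all kept cells the Alox5ap level was 231 CPM in WT and 511 in KO, and cell classes were present in different shares in the libraries. Resident macrophage-like cells had a ratio of -0.31 (-0.59 to -0.02), which kept its sign in 10 of 15 other settings, and the cDC classes ratios of 0.13 and 0.08. After thinning, 22.2% of WT and 41.5% of KO neutrophil-like cells and 24.7% and 34.2% of monocyte-like cells held a UMI. In epithelial cells, taken as background, the thinned share was 0 of 123 in WT, which allows up to 2.44%, and 0 of 17 in KO, which allows up to 17.6%, at median depths of 18679 and 4967 UMIs. At full depth 4.07% of WT and 17.6% of KO epithelial cells held a UMI, the latter 3 cells. Within the monocyte-like class the larger KO cluster was at 929 CPM in WT and 1001 in KO, and the larger WT cluster at 574 and 691, so each cluster differed less than the class did.

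T cells gave a ratio past 2-fold for Alox5ap as well, from 10.4 CPM in WT to 77.2 in KO (15 and 57 UMIs). The log2 ratio was 2.89 (2.05 to 3.82), where 2.94% of genes were at least 2-fold higher. The 5 highest KO cells held 80.7% of the KO UMIs, and all 15 WT UMIs lay in 5 cells or fewer. Without the 5 highest cells of each library, 0 WT and 11 KO UMIs were left, the latter at 17.0 CPM. The 5 highest KO cells held 1151 CPM of resident macrophage and 1162 CPM of cDC2 markers, against 416 and 167 CPM in the other KO T cells. The inflammatory monocyte list was at 1051 and 254 CPM in these cells. In the 5 highest WT cells the inflammatory monocyte list was at 1549 CPM, against 905 in the other WT T cells. Their resident macrophage list was at 398 CPM, against 348, and their cDC2 list at 133, against 104. The part of the 5 highest cells in the result was not tested.

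Alox5, the 5-lipoxygenase itself (ENSMUSG00000025701, minus strand, chr6:116410077-116461178), was sparse, with 88 UMIs in WT and 297 in KO. The highest level was in the Ccr3-high class, 110 CPM in WT (20 UMIs) and 127 in KO (58 UMIs). Its interval overlapped that of the next class, the intermediate cluster in WT and neutrophil-like cells in KO. In the Ccr3-high class the libraries did not differ beyond counting error (log2 0.20, -0.56 to 1.01). Neutrophil-like cells stood at 28.8 CPM in WT and 79.0 in KO, a log2 ratio of 1.46 (0.26 to 2.95) that rests on 6 WT UMIs, where 4.84% of genes were at least 2-fold higher. With cells classed by their highest marker score it was 0.57, not past 2-fold. In these neutrophil-like cells the resident macrophage list summed to 594 CPM in WT and 132 in KO and the neutrophil list to 43648 and 78297, and their part in the Alox5 result was not tested. In B cells no Alox5 UMI was found in 200 WT or 85 KO cells, which allows shares of cells with a UMI of up to 1.5% and 3.53% at median depths of 2999.5 and 4394 UMIs and sets no limit on cells that express the gene.

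In resident macrophage-like cells Alox5 had too few UMIs for the comparison (8 in WT, 37 in KO), at 3.94 and 35.3 CPM, and 2.48% of WT and 23.1% of KO cells held one. The intermediate cluster was at 43.3 CPM in WT and 26.5 in KO. Over macrophages and monocytes pooled, Alox5 was the only one of the 8 members with enough UMIs that was past 2-fold, from 6.23 CPM in WT to 17.7 in KO (31 and 105 UMIs), a log2 ratio of 1.51 (0.92 to 2.14). That ratio was past 2-fold in 14 of 15 other settings, and the lowest value was 0.77. Over all genes in the pooled cells 2.27% were at least 2-fold higher and 3.71% at least 2-fold lower. The intermediate cluster, where Alox5 was higher than in monocytes, made up 18 of 802 pooled cells in WT and 152 of 650 in KO.

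Ltc4s, the leukotriene C4 synthase (ENSMUSG00000020377, minus strand, chr11:50236461-50238616), shared its highest class with Hpgds and Ptgs1. In WT the interval of that class overlapped that of neutrophil-like cells, which were at 43.1 CPM (9 UMIs) and in KO at 4.65 (4 UMIs). Resident macrophage-like cells stood at 58.1 CPM in WT and 85.8 in KO, a log2 ratio of 0.56 (0.15 to 0.97) that kept its sign in 12 of 15 other settings, and 14.6% and 32.3% of cells held a UMI. After thinning, the shares were 3.10% and 4.62% with overlapping intervals, against 0 of 200 WT and 0 of 85 KO B cells. The cDC2-like Plet1 cluster was at 39.5 CPM in WT and 19.3 in KO, and the Cd209a cluster at 2.74 and 6.54. The order of the libraries differed between these clusters, but the Cd209a values rest on 4 WT and 35 KO UMIs with overlapping intervals. In the resident macrophage-like cells with Ltc4s, Alox5ap was found in 18 of 47 WT and 16 of 42 KO cells, and Alox5 in 5 of 47 and 11 of 42. Over all cells of the class, 46.1% in WT and 36.9% in KO held Alox5ap, and 2.48% and 23.1% Alox5.

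Alox15 (ENSMUSG00000018924, minus strand, chr11:70344152-70352031) belonged to the Ccr3-high class. That class held 71.9% of all WT and 92.2% of all KO UMIs of the gene, at 381 CPM in WT and 519 in KO, a log2 ratio of 0.45 (0.06 to 0.86). Over 14 other settings that ratio lay between 0.11 and 1.24 and was past 2-fold in 1 of them. The next class by level was at 5.35 CPM in WT and 4.77 in KO. Thinned to 500 UMIs, 18.0% of WT and 19.1% of KO cells of the class held a UMI, against 0 of 200 WT and 0 of 85 KO B cells, at median depths of 2999.5 and 4394 UMIs. Of the cells with Alox15, 21 of 51 in WT and 112 of 147 in KO also held Alox5ap, and 6 of 51 and 22 of 147 held Alox5. Over all Ccr3-high cells, 46.9% in WT and 67.6% in KO held Alox5ap, and 9.79% and 12.7% Alox5.

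The Ccr3-high class also carried mast cell markers in WT, with a summed level of 12619 CPM against 290 in KO (8 and 5 of 10 genes with a UMI). Just 2 WT cells held 97.9% of those UMIs. Without the cells that carried 3 or more mast cell markers, the list was at 281 CPM in WT and 192 in KO, and Alox15 was at 412 and 526 CPM. Those 2 WT cells held 3 Ltc4s, 1 Hpgds and 5 Alox5ap UMIs, and the 3 Ltc4s UMIs were all that the WT class had. Neutrophil markers in the class summed to 8633 CPM in WT and 7098 in KO, with 6 and 8 of 9 genes seen and Ly6g at 0 in both.

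**Figure D5:**
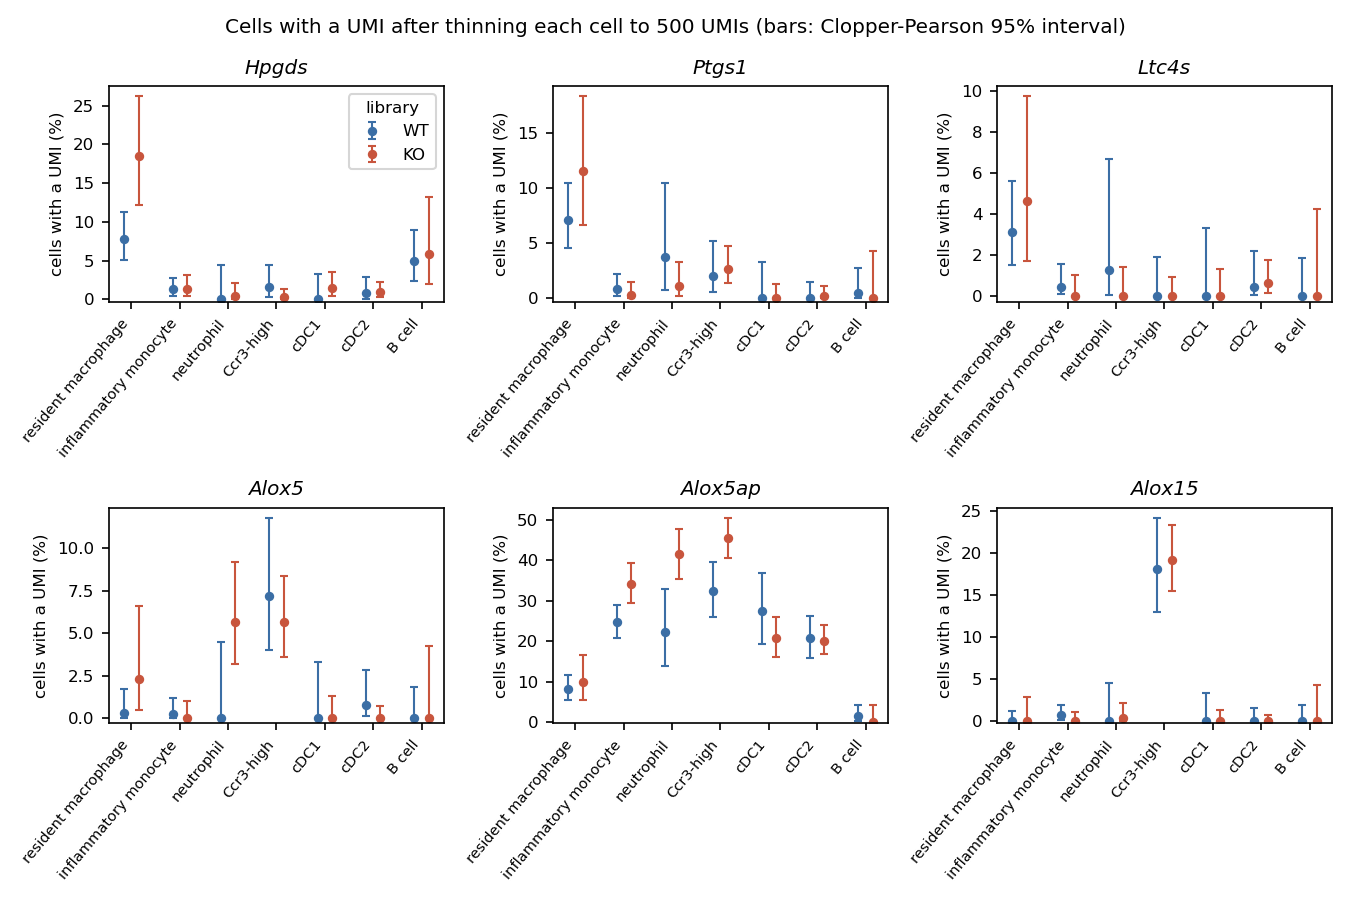
Share of cells with a UMI of 6 genes after each cell was thinned to 500 UMIs, in 7 classes of the WT (blue) and KO (red) library, with Clopper-Pearson 95% intervals as bars. Hpgds, Ptgs1 and Ltc4s are highest in resident macrophages, Alox15 stands out in the Ccr3-high class at 18.0% and 19.1%, and Alox5ap is spread over the 6 myeloid classes shown.

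Ptger4, a receptor for prostaglandin E2 that raises cyclic AMP (ENSMUSG00000039942, minus strand, chr15:5206661-5244187), was seen in every named class. Mature dendritic cell-like cells were highest at 362 CPM in WT and 330 in KO (19 and 40 cells). cDC2-like cells stood at 197 and 265 CPM, a log2 ratio of 0.43 (0.29 to 0.57), and resident macrophage-like cells at 153 and 253, a ratio of 0.73 (0.49 to 0.97). In the Cd209a cDC2 cluster the level was 209 CPM in WT and 303 in KO, and in the Plet1 cluster 182 and 173, with overlapping intervals. Monocyte-like cells were at 119 and 101 CPM, and NK cells, too few for the comparison, at 73.1 and 267.

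T cells were the class in which Ptger4 was past 2-fold between libraries. The level was 124 CPM in WT and 36.5 in KO (179 and 27 UMIs), a log2 ratio of -1.76 (-2.41 to -1.18), and 37.3% of WT and 11.8% of KO cells held a UMI. It was lower in KO in both T cell clusters, at 119 CPM in WT and 27.8 in KO in the Gzma cluster and at 141 and 46.5 in the Icos cluster. In that class 10.1% of all genes were at least 2-fold lower, the highest such share of the classes compared. The 5 highest KO cells held 66.7% of the KO UMIs together with 1328 CPM of resident macrophage markers. Without the 5 highest cells of each library the level was 106 CPM in WT and 13.7 in KO, a wider gap. In those other cells the inflammatory monocyte list was at 933 CPM in WT and 252 in KO. Which cells these marker UMIs came from, and their part in the result, was not tested. The call held in each of the 15 other settings of the processing that were tried, with ratios from -2.58 to -1.15. On the opposite strand Ptger4 overlaps Ttc33, and whether the counting used strand is not given in the sources used here.

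Ptger2, the other receptor of this kind (ENSMUSG00000037759, plus strand, chr14:44988195-45003820), had 34 UMIs in WT and 77 in KO over all kept cells, too few for a comparison in any class. Its highest class was fibroblasts, at 25.3 CPM in WT and 28.2 in KO (11 and 6 UMIs), with intervals that overlapped those of several other classes. Pooled macrophages and monocytes were at 2.01 CPM in WT and 6.08 in KO (10 and 36 UMIs).

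Counted over the 10 genes and the 8 classes that held 50 or more cells in both libraries, 33 of 80 pairs had the 50 UMIs needed. Ptgs2 gave 5 of the 9 ratios past 2-fold, 2 higher and 3 lower. The share of all genes past 2-fold ranged from 0.826% in B cells to 5.45% in the Ccr3-high class on the higher side, and from 1.61% in cDC1-like cells to 10.1% in T cells on the lower side. The median log2 ratio of all genes tested in a class lay between -0.23 and 0.09. Of the 6 members tested in resident macrophage-like cells the median was 0.61, against -0.23 for all genes of the class, and of the 5 in monocyte-like cells -0.45 against -0.16. In cDC2-like cells, where 2.51% of genes were at least 2-fold higher and 5.61% lower, none of 5 members was past 2-fold, and in monocyte-like cells, at 2.41% and 5.52%, none of 5. In the Ccr3-high class none of 4 was, at 5.45% and 3.09%.

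The 45 other genes of the pathway, taken from a list of phospholipases, synthases, breakdown enzymes and receptors, were read in the same way. Over macrophages and monocytes pooled, 21 had at least 50 UMIs, none was 2-fold higher and 2 were 2-fold lower, beside 2.27% and 3.71% of all genes, with a median log2 ratio of -0.08 against -0.17 for all genes. Pla2g2d, a secreted phospholipase A2, was at 17.1 CPM in WT and 3.04 in KO (85 and 18 UMIs), a ratio of -2.49 (-3.31 to -1.75), and all these UMIs lay in resident macrophage-like cells, which were 323 of 802 pooled cells in WT and 130 of 650 in KO. Within that class Pla2g2d was at 41.8 CPM in WT and 17.2 in KO, a ratio of -1.29. Cyp4f18, a cytochrome P450 that breaks down leukotriene B4, was at 454 CPM in WT and 176 in KO, a ratio of -1.37 (-1.47 to -1.26).

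Cyp4f18 was lower in KO in several myeloid classes. It was at 471 CPM in WT and 207 in KO resident macrophage-like cells, at 449 and 189 in monocyte-like cells and at 99.9 and 28.6 in cDC2-like cells, past 2-fold in each. Its highest class was the Ccr3-high class, shared with Alox5 and Alox15, where it stood at 2114 CPM in WT and 2904 in KO. Lta4h, which makes leukotriene B4, was also highest there, at 342 and 253 CPM, as was Alox12e with 2 and 6 UMIs.

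Other pathway genes shared a highest class with Ptges and Ptger2 in fibroblasts. These were Pla2g4a, the cytosolic phospholipase A2 that frees arachidonic acid, at 73.5 CPM in WT and 174 in KO, Ptgis, the prostacyclin synthase, at 50.5 and 47.0, and Ggt5, which trims leukotriene C4, at 368 and 70.6. Ptger1, Ptgfr, Ptgr1 and Dpep1 were also highest in fibroblasts in both libraries, at 20.7, 29.9, 32.2 and 262 CPM in WT and at 32.9, 4.70, 23.5 and 23.5 CPM in the 21 KO cells, where Ptgfr had 1 UMI. Hpgd, the enzyme that inactivates prostaglandin E2, was highest in fibroblasts in WT at 131 CPM and in resident macrophage-like cells in KO at 62.0 CPM. In neutrophil-like cells, the class that led Alox5ap in WT, Fpr2, a receptor for lipoxin A4 and formyl peptides, was at 412 CPM in WT and 265 in KO. Ltb4r1, the main leukotriene B4 receptor gene, shared the intermediate cluster with Ptgs2, at 86.6 and 80.1 CPM. In KO, monocyte-like cells at 80.0 CPM and cDC2-like cells at 79.4 were close to that level. Dpep2, a dipeptidase gene, was also highest in the intermediate cluster, at 14.4 and 6.34 CPM. Ptgds, Ptgdr, Ptgdr2, Alox12, Oxgr1 and Pla2g4b had 0 UMIs among all kept cells, so neither receptor for prostaglandin D2 was seen at this depth.

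Within single classes, past 2-fold ratios of pathway genes were nearly all lower in KO. In resident macrophage-like cells, where 7% of all genes were lower and 2.83% higher, 3 of 12 were lower and none higher: Pla2g2d, Cyp4f18 and Fpr2, the last at 41.8 CPM in WT and 5.72 in KO. Beside these stands the inflammatory monocyte list in the same cells, at 1319 CPM in WT and 404 in KO, and its part was not tested. In monocyte-like cells, where 5.52% of all genes were, 3 of 15 were lower: Cyp4f18, Tbxas1, the thromboxane synthase, at 86.6 and 29.9 CPM, and Cysltr1, a cysteinyl leukotriene receptor, at 47.1 and 17.5. That class is one whose clusters the libraries filled unevenly, and these genes were not read by cluster. In T cells, where 10.1% of all genes were, 3 of 6 were lower: Cysltr2 at 54.8 and 12.2 CPM, Lta4h at 118 and 48.7, and Mgst2 at 29.8 and 10.8. In cDC2-like cells, with 5.61% of all genes lower and 2.51% higher, 3 of 16 were lower and 1 was higher. The lower ones were Cyp4f18, Ggt5 at 26.7 and 8.18 CPM and Hpgd at 18.7 and 4.09. The higher one was the prostacyclin receptor gene Ptgir, at 11.1 and 24.3 CPM. The Cd209a cluster of that class held 150 WT and 384 KO cells and the Plet1 cluster 101 and 122. Pathway genes were not read by cluster there either. None was past 2-fold among 12 in cDC1-like cells (2.12% of all genes higher and 1.61% lower), 4 in Ccr3-high cells (5.45% and 3.09%), 3 in neutrophil-like cells (4.84% and 7.12%) and 3 in B cells (0.826% and 6.7%), numbers too small to read against such shares. The names in single classes were chosen after their values had been seen.

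Stress genes induced by tissue dissociation, a list of 17 that holds Fos, Jun and Hspa1a, were read beside the members because Ptgs2 is itself an immediate early gene. Their log2 ratios had a median of 0.08 in resident macrophage-like cells and -0.01 in monocyte-like cells, where Ptgs2 was lower in KO. The medians of all genes there were -0.23 and -0.16. In neutrophil-like cells, where Ptgs2 was also lower, the stress median was -0.57, and in B cells -0.64, against -0.07 and -0.09. In T cells it was 0.19 and in cDC1-like cells 0.12, against -0.19 and -0.11. Single stress genes were past 2-fold all the same, here with the share of all genes in brackets. In resident macrophage-like cells 4 of 17 were higher in KO (2.83%), and in monocyte-like cells 2 (2.41%). In T cells 3 were higher (2.94%) and in cDC1-like cells 2 (2.12%). Lower in KO were 3 of 17 in B cells (6.7%), 3 in cDC2-like cells (5.61%) and 2 in neutrophil-like cells (7.12%). In the Ccr3-high class 1 of 16 was lower (3.09%). The stress medians in cDC2-like and Ccr3-high cells were -0.14 and -0.02, against -0.22 and 0.09. The part of handling in these results was not tested.

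Genes with the most similar profile were named for each member by Pearson's r over 27 class by library values of log2(CPM + 10), among 9485 genes with at least 200 UMIs. These points share libraries and depth, and the r values are a description. Ptgs2 was closest to Tnfaip2 (0.94), Il1b (0.91) and Nlrp3 (0.91), Alox15 to Il4 (0.97), Ccr3 (0.94) and Gapt (0.92), and Ptges to the collagen genes Col5a1 (0.97) and Col6a3 (0.96) and to Fstl1 (0.96). Ltc4s was closest to C1qb (0.81), C1qc (0.80) and Ms4a7 (0.79), Alox5ap to Fem1c (0.95), Nfam1 (0.94) and Cd300a (0.92), and Alox5 to Cd300lb (0.91), Cd300ld (0.87) and C130050O18Rik (0.87). The closest genes for Ptgs1 were Trim47 (0.86), Hebp1 (0.85) and Timp2 (0.85), and for Ptger2 Pdpn (0.84), Thbd (0.82) and Plod1 (0.82). For Ptger4 they were Pik3r1 (0.83), Mfhas1 (0.79) and Spred1 (0.78), and for Hpgds Snx8 (0.77), Hdac9 (0.75) and Cd72 (0.74).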

How the data were processed

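The authors deposited raw UMI count matrices of 2 droplet 3' libraries, 1 per genotype, made with Cell Ranger 3.0.2 per the file headers; the submitters' processing notes name mm10 and Seurat 4. Whether counting used strand is not given in the sources used here. The study removed low-quality cells and doublets by limits on genes and mitochondrial share alone, and the same limits were used here. From 3185 WT and 3020 KO barcodes, of which both libraries shared 1, cells with 200 to 6000 genes and at most 15% mitochondrial UMIs were kept. The legend of the study counts more cells of each genotype than there are barcodes here. Both libraries were clustered together with scanpy 1.11.5 (2000 variable genes, 30 components, 15 neighbours, Leiden resolution 1, leidenalg 0.10.2, scikit-learn 1.9.0, Python 3.11.15) rather than with the deep clustering of the study, so class names were rebuilt and shares can differ from it. The 10 members and 45 pathway genes were kept out of the variable genes. Classes were named from marker lists when at least 3 markers were raised; the rule for the Ccr3-high class was made once a first clustering had been looked at, and 2 clusters stayed unnamed. Scrublet called 1 WT and 9 KO cells (0.0385% and 0.358%) and so did not work, and no cell was removed on its scores in the results above.

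UMIs were summed per class and library. CPM intervals are exact Poisson, ratio intervals exact conditional binomial (scipy 1.17.1) and share intervals Clopper-Pearson, all at 95%, for counting error only. Pairs past 2-fold had at least 50 UMIs over both libraries and a log2 ratio of CPM, with a prior of 1 CPM, of at least 1 in size, in classes that held 50 or more cells in both libraries; printed ratios have no prior, except those from other settings, those without the 5 highest cells and those in the closing section. For shares, each cell was thinned to 500 UMIs; the limit set by a count of 0 is 3 cells. The background classes for shares were chosen after values had been seen. The members and lists were chosen with earlier results of these data known. All 10 members are described; other pathway genes were named when past 2-fold in macrophages and monocytes pooled or when sharing a highest class with a member in both libraries, or with Alox5ap in WT, others as said. Coordinates are those of the GRCm38 annotation given with the files. The counting steps were tested on simulated data. Other filters, clusterings, weightings, priors and class rules were tried, and 3 were added after the data had been seen: both placements of the intermediate cells, and leaving out the 5 cells with the most UMIs of a member.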

Additional observations from a re-analysis of the deposited data

Results flagged for a closer look

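Ptgs2 differed between genotypes in opposite directions in T cells and B cells. With the prior of 1 CPM, the log2 ratio of KO to WT was 1.63 in T cells and -4.12 in B cells, a difference of 5.75 between these classes. With 1 library per genotype this difference was not tested. The opposition rests on few cells: without the 5 cells with the most Ptgs2 UMIs in each library, the ratio was -1.48 in T cells and -6.14 in B cells, lower in KO in both, where the B cell value is set by the prior since no KO UMI is left. In T cells 5 KO cells held 53 of the 57 KO UMIs, and in B cells 5 WT cells held 138 of the 189 WT UMIs.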

How the results depend on the processing

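No paired analysis was possible because there is 1 library per genotype, and for the same reason no replicate could be left out. The number of gene and class pairs at least 2-fold higher in KO went from 5 to 3 with more variable genes, with a stricter cell filter, with each library clustered alone, with the top 3% of Scrublet scores removed, with cells classed by their highest marker score, and without the 5 cells with the most UMIs. With genes of at least 20 UMIs admitted there were 8 higher and 8 lower pairs, against 4 lower. Of the pathway genes in pooled macrophages and monocytes, 2 were higher and 4 lower with more variable genes, 1 was higher after centring on the class median, 1 was lower with each cell weighted equally and 4 with marker scores. The share of all genes past 2-fold was not computed under these other settings. The counts therefore cannot be set against a background and are not read as results about these genes. The sign turned for Ptgs2 in cDC1-like cells with marker scores (-1.93) and in T cells without the 5 highest cells (-1.48). Of 10 ratios past 2-fold, the 3 that stayed so in all alternatives that gave a value, the one without the 5 highest cells aside, were Ptger4 and Alox5ap in T cells and Ptgs2 in neutrophil-like cells. For Ptgs2 in resident macrophage-like cells the ratio lay between -1.95 and -0.40, and for Hpgds between 0.24 and 1.58. The causes were not tested. Some settings left a class too small for a value, such as the Ccr3-high class with each library clustered alone. Ptger2, with 111 UMIs over both libraries, had too few for a comparison in any single class. Among single classes Ptges had enough only in fibroblasts, of which the KO library held 21. It also had enough over macrophages and monocytes pooled.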
